A study of Rattus norvegicus with 10 samples.

Results

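The genes described here are the voltage-gated potassium, sodium and calcium channels of the rat brain and the potassium channels that share their gene symbols. A gene was taken when its symbol began with *Kcn*, *Scn* (followed by a digit and a or b), *Cacna*, *Cacnb*, *Cacng* or *Hcn*, and when a probe set, the group of short probes that measures a transcript, was paired with that symbol alone. This gave 114 of the 14218 genes named on the array, with 181 of its 31099 probe sets. Each gene was represented by its brightest probe set (the highest mean log2 signal over the 1 week arrays), and 72 genes had no other. The symbol rule also brings in channels that voltage does not gate, namely the inward rectifiers (*Kcnj*), the two-pore leak channels (*Kcnk*) and the small-conductance calcium-activated channels (*Kcnn*).

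The study was designed to find the genes that respond to calorie restriction (CR, less food without malnutrition) of graded strength. Male Wistar rats, an outbred strain, were 6 weeks old, and the groups used here were restricted by 5, 10, 20 or 30% for 1 week or were control rats at 0%. All rats, control rats included, were fasted for 16 h before sampling. The brain tissue came from the area of the hypothalamus, the centre of feeding control, by the study's methods. Most hypothalamic peptide genes were bright, and the summed signal of 9 of them was 23685 to 25862 on the CR arrays and 21183 on the control array. The largest part was *Pmch*, at 8130 to 8942 with CR and 7157 in control. *Pomc* was dim, at 4.9 to 14.8 with CR and 2.6 in control. Of the 8 that were tested as described below, 3 were higher with CR and 1, *Trh*, was lower. Each group was a pool of RNA from 5 rats on 1 array, so there were 4 CR arrays and 1 control array. The comparison below sets the 4 CR arrays together against the control array. The CR levels are not replicates of a dose, each p-value rests on the spread between pools of rats, and the single control array was assumed to vary as the CR arrays did. The number of arrays limits the precision of every value.

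Voltage-gated channels open when the membrane potential changes. Sodium channels start the action potential, potassium channels end it and set the interval to the next, and calcium channels couple it to transmitter and hormone release. Each is built from a pore subunit and from auxiliary subunits that alter its gating or its delivery to the membrane, while inward rectifier and leak potassium channels set the resting potential, and in hypothalamic neurons the ATP-sensitive inward rectifier links firing to glucose.

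The signals are MAS5 intensities on a linear scale, and many channel genes were dim. All arrays of 64 channel genes read under 100, and 34 genes read over 100 on every array. The test was limited to probe sets brighter on average than the median of all probe sets, which is a signal of 53.3, and 54 channel genes passed that limit while 60 did not. Just inside the limit were *Kcne3* at 54.3, *Scn10a* at 57.2 and *Kcnj4* at 58.2 (geometric mean of the 5 arrays), and just outside were *Cacng8* at 53.1, *Kcnq3* at 51.3 and *Kcnj14* at 49.7. The control reading of *Kcne3*, *Scn10a*, *Kcnh3*, *Kcnj4*, *Kcnk13* and *Kcnn3* was itself under the limit, so these 6 passed it only because their CR arrays read higher, and they had to differ.

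Over all probe sets the control array differed from the CR arrays. It had 24.0% of signals under 10, against 11.7 to 14.4% on the CR arrays, and among the 114 channel genes 26 were under 10 on it, against 7 to 16 on a CR array. Its log2 signals correlated at 0.852 to 0.874 with the CR arrays, which correlated at 0.912 to 0.922 with one another (correlations over probe sets, which are no replicates). The markers fixed for neighbouring tissue also moved with the groups. The summed signal of 6 pituitary markers was 2047 to 2849 on the CR arrays and 988.4 on the control array, with 3 of 3 tested members higher in CR. For 3 choroid plexus markers the sums were 194.4 to 280.7 with CR and 110.6 in control, with 1 of 2 tested members higher, and for 6 muscle markers they were 359.9 to 537.3 and 240.9, with 0 of 2 tested members passing. The higher choroid plexus gene, *Ttr*, read 35.5 in control, under the limit, so it was tested only through its CR arrays and had to differ. The part of these differences in the channel results was not tested.

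Changes of the channel genes bright enough to test were mostly small. The change, the mean log2 signal of the CR arrays minus that of control, was smaller than 0.5 in either direction for 40 of the 54 genes tested and for 17 of the 60 under the limit. The same count over all named genes was not made. All 4 CR arrays lay on 1 side of control for 36 of the 54, above it for 25 (46.3%) and below it for 11 (20.4%). Over all named genes tested the shares were 33.3% above and 35.9% below. The 6 genes that had to differ are among the 25. The median change of the genes tested was 0.16, against -0.02 over all 9479 named genes tested. The 6 genes that had to differ raise the channel median, and a median without them was not computed. With limma and Benjamini-Hochberg adjustment over all probe sets tested (threshold 0.05), 9 channel genes passed. The 8 that were higher in CR made up 14.8% of the genes tested, against a background of 11.6% of all named genes, and the 1 that was lower made up 1.85%, against 11.3%. The 3 among the higher genes that had to differ, *Kcne3*, *Scn10a* and *Kcnh3*, are counted in the 8. Among the 48 genes whose control signal was over the limit, 5 were higher (10.4%) and 1 was lower (2.08%), against 9.46% and 12.2% of the 8836 named genes chosen the same way, a choice that favours high control readings. In bulk tissue, fewer cells of a type and less RNA per cell cannot be told apart.

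The split into higher and lower genes depended on how the arrays were scaled. It was 7 higher and 1 lower with quantile normalization and 6 and 1 with cyclic loess, but median scaling turned it. When each array was set to the same median signal, the median change of all tested probe sets moved to -0.41, against 0.03 as deposited, and the channel genes split into 3 higher and 11 lower. *Kcne3* (log2 change 1.85), *Scn10a* (1.26) and *Kcnk3* (0.65) remained higher under that scaling, and *Scn1a* (-1.62) remained lower. That scaling moved every probe set down alike, and 10 further genes passed as lower with changes, which include the shift, between -0.93 and -0.59, namely *Scn2a* (-0.93), *Cacna1b* (-0.93), *Cacnb3* (-0.74), *Kcnc2* (-0.74), *Kcnab2* (-0.72), *Kcnd2* (-0.70), *Kcnc1* (-0.70), *Kcnk2* (-0.67), *Kcnj6* (-0.62) and *Kcnj16* (-0.59).

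**Figure D1:**
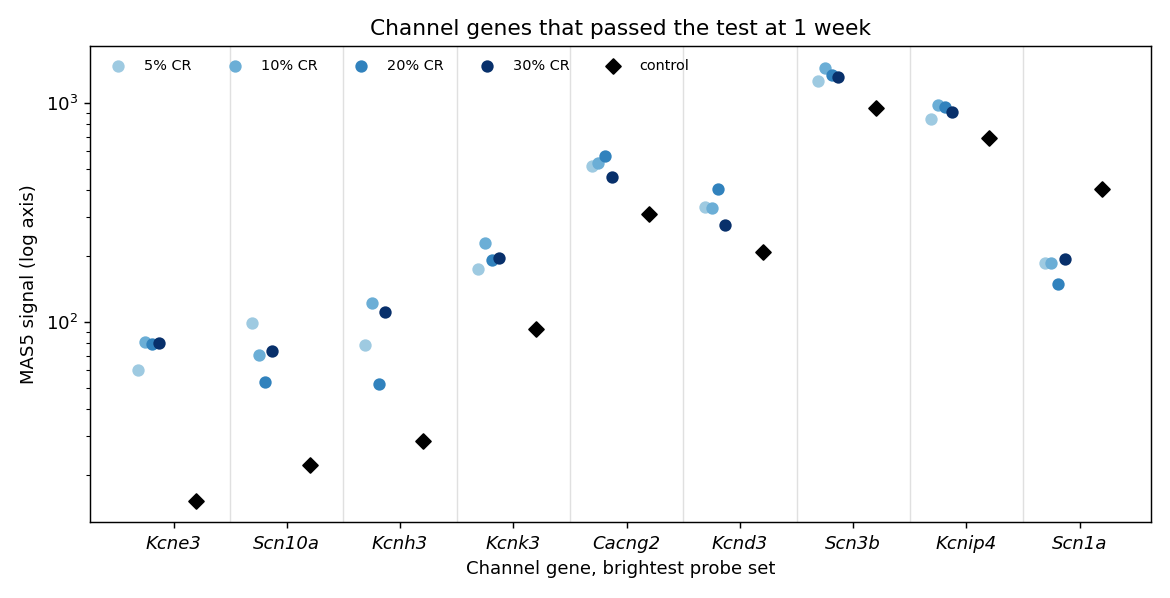
MAS5 signal (log axis) of the 9 channel genes that passed the test, with the 4 CR arrays as circles (5, 10, 20 and 30%, light to dark) and the control array as a black diamond. The CR arrays lie above control for 8 genes, 3 of which start from a control signal under 30, and below it for *Scn1a*. Levels of different genes are not comparable.

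Among the pore subunits of the sodium channels, *Scn1a* fell. It codes for Nav1.1, the channel that carries much of the sodium current of fast-spiking inhibitory neurons. Its signal was 184.7, 186.3, 148.8 and 194.5 at 5, 10, 20 and 30% CR, against 403.1 in control. Every CR array read less than the control array by a wide margin, and the CR arrays stayed close together. The log2 change was -1.18 ± 0.17 (SD over 4 CR arrays, SE 0.21), a level 2.27 times lower in CR, with an adjusted p of 0.0036. *Scn1a* passed in 13 of 13 alternative analyses. A gene that fell under the limit in an alternative was not tested there, so the number of alternatives differs between genes. *Scn1a* had 1 probe set, so no other reading of it was at hand.

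Another neuronal pore subunit, *Scn2a* (Nav1.2, prominent in excitatory neurons and their axons), lay on the same side without passing. Its signal was 328.8, 293.9, 264.5 and 324.4 with 5, 10, 20 and 30% CR and 426.5 in control, a log2 change of -0.50 ± 0.15 with an adjusted p of 0.066. The groups did not overlap. *Scn3a* (Nav1.3, most abundant before birth) had -0.08, and *Scn9a* (Nav1.7, known from pain-sensing neurons and also made in the hypothalamus) had 0.36. *Scn7a*, the sodium-sensing channel of glia around the ventricles, read 506.3, 553.9, 436.2 and 433.6 with CR and 370.3 in control (log2 change 0.37, adjusted p 0.143). *Scn8a* (Nav1.6, the channel of the axon initial segment) was under the limit at 5.0 to 53.1 with CR and 5.3 in control.

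*Scn10a*, the Nav1.8 channel known from peripheral sensory neurons, was higher in CR at a low signal. It read 99.0, 70.6, 53.1 and 73.8 with 5, 10, 20 and 30% CR and 22.3 in control, a log2 change of 1.70 ± 0.37 (adjusted p 0.0204). The CR arrays differed among themselves by close to a doubling, and all lay above the control array. The control reading of *Scn10a* was under the limit, so the gene had to differ to be tested. The gene passed in 10 of 12 alternatives.

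Of the 3 auxiliary beta subunits, which tune sodium channel gating and adhesion, *Scn3b* rose. Its signal was 1258, 1445, 1340 and 1307 in CR and 940.9 in control, a log2 change of 0.51 ± 0.08 (adjusted p 0.0129), and the CR arrays lay in a narrow band above control. It passed in 10 of 13 alternatives, and the exceptions were median scaling (0.07, adjusted p 0.701), eBayes without trend (adjusted p 0.083) and the mean of all probe sets (0.14, adjusted p 0.549). Its other tested probe set read 503.1, 302.9, 473.4 and 560.7 with CR and 525.6 in control (-0.23, adjusted p 0.586), so the rise belonged to 1 of its 2 tested probe sets. *Scn2b* (0.04) and *Scn4b* (-0.25) did not pass.

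Proteins that hold sodium channels in place were read from a list of 30 channel partners, of which 27 were on the array and 22 were tested. Of these, 1 was higher and 2 were lower, against 11.6% and 11.3% of all named genes tested. The lower count was 8 with median scaling and 1 in 7 other alternatives, which all ended the call of *Fgf13*, and the higher count was 0 with the filter at the 75th percentile and 5 with the mean of all probe sets. *Ank3* codes for ankyrin-G, which anchors sodium and Kcnq channels at the axon initial segment, and it read 339.5, 360.3, 434.1 and 356.8 with CR and 633.3 in control. All CR arrays lay below control, and the log2 change was -0.77 ± 0.16 (adjusted p 0.0099). *Fgf13*, an intracellular factor that binds sodium channels, read 883.3, 826.6, 940.9 and 982.0 with CR and 1200 in control (-0.41 ± 0.11, adjusted p 0.047), and it passed in 6 of 13 alternatives. *Lrrc26*, an auxiliary subunit of the BK channel, was the partner that was higher, with 113.2, 89.9, 122.3 and 120.0 in CR and 12.6 in control (3.13 ± 0.20, adjusted p 4.3e-04), and its control reading was under the limit. The median change of the tested partners was -0.13.

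**Figure D2:**
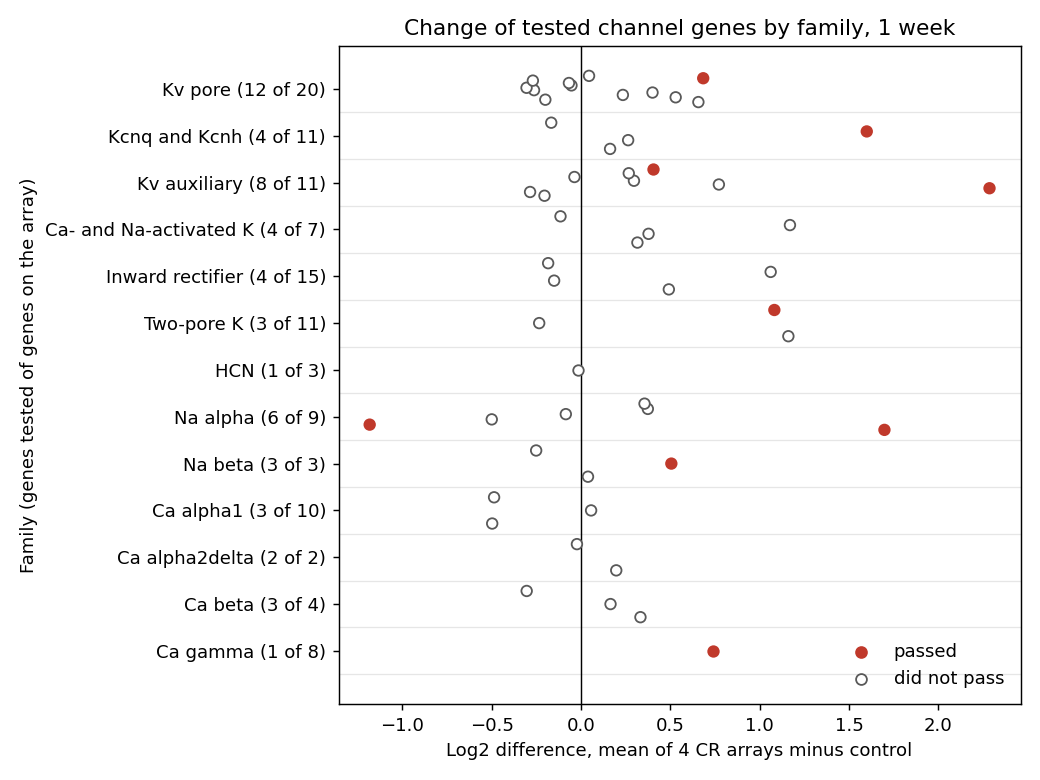
Log2 change (mean of 4 CR arrays minus control) of the 54 tested channel genes by family, with each point a gene, filled where it passed the test. Points of most families straddle 0, the 2 sodium pore genes that passed lie on opposite sides, and *Scn1a* and *Kcne3* (which had to differ to be tested) mark the ends of the range.

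Of the 20 pore subunits of the voltage-gated potassium channels (Kv), 12 were tested and 1 passed, against 22.9% of all named genes tested. The families are too small for such counts to say anything about a family. Changes lay on both sides of 0, with a median of -0.00 and a range of -0.30 to 0.68. All 4 CR arrays lay above control for 5 of the 12 and below it for 3, against 33.3% and 35.9% of all named genes tested. The gene that passed was *Kcnd3*, which codes for Kv4.3, a fast-inactivating A-type channel that delays firing. It read 335.4, 330.5, 405.5 and 276.3 with CR and 207.8 in control, a log2 change of 0.68 ± 0.23 (adjusted p 0.039), and passed in 7 of 13 alternatives. Each CR array lay above control on this probe set. On its other tested probe set the CR arrays read 218.1, 203.4, 294.7 and 205.4 and the control array 298.5, a change of -0.39 (adjusted p 0.247). The probe sets of *Kcnd3* therefore read opposite ways.

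The A-type current also needs *Kcnd2* (Kv4.2) and the KChIP subunits, calcium-binding proteins of the *Kcnip* genes that bring Kv4 channels to the membrane. *Kcnd2* read 468.2 to 592.0 in CR and 616.4 in control (-0.27, adjusted p 0.250). *Kcnip4* rose, with 839.9, 972.1, 952.1 and 909.7 in CR and 692.2 in control (0.41 ± 0.09, adjusted p 0.044), but it passed in only 7 of 13 alternatives and had a change of -0.029 with median scaling. The CR arrays lay together above control, whereas its other tested probe set read 75.8, 98.6, 69.7 and 77.8 with CR and 116.4 in control (-0.54, adjusted p 0.243), again on the other side. *Kcnip1* (0.30), *Kcnip3* (0.27) and *Kcnip2* (-0.04) did not pass, nor did the Kv4 partners *Dpp6* (0.11) and *Dpp10* (-0.14).

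None of the other Kv pore genes tested, among them the delayed rectifiers, which repolarise the action potential, passed. *Kcna1* (Kv1.1, which sits on axons and limits repetitive firing) read 163.1, 187.3, 235.7 and 225.4 with CR and 127.3 in control (0.66 ± 0.25, adjusted p 0.077), with no overlap. *Kcna6* (Kv1.6) read 768.4, 868.2, 698.9 and 886.8 with CR and 607.6 in control (0.40 ± 0.16, adjusted p 0.086), also with no overlap. *Kcna2* (Kv1.2) read 566.9 to 1060 with CR and 835.9 in control (-0.20), so control fell inside the CR range. *Kcnc1* and *Kcnc2*, the Kv3 channels of fast-spiking neurons, had changes of -0.26 and -0.30 with adjusted p of 0.275 and 0.176, and all CR arrays lay below control for both. *Kcna4* (Kv1.4) changed by 0.53 (adjusted p 0.128), and the remaining pore genes tested, *Kcna5* (0.23), *Kcns3* (0.05), *Kcnc4* (-0.05) and *Kcnd1* (-0.07), had adjusted p of 0.651 to 0.944. *Kcnab2*, a beta subunit of the Kv1 channels, read 379.9 to 449.8 with CR and 505.1 in control (-0.28, adjusted p 0.202), and *Kcnab1* had -0.20 (adjusted p 0.572).

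*Kcne3*, a small membrane subunit that alters the gating of Kcnq and Kv channels, was among the genes that passed the limit only through their CR arrays, so it had to differ to be tested. Its signal was 60.2, 80.8, 79.3 and 80.3 at 5, 10, 20 and 30% CR and 15.3 in control, a log2 change of 2.29 ± 0.21 (adjusted p 0.0039), and it passed in 11 of 11 alternatives. The CR arrays lay close together and far above control, all at low signal. With no limit on signal its adjusted p was 0.0068 (range 0.0036 to 0.047 over the alternatives). Its other probe set was dimmer still, at 4.9 to 12.7 with CR and 8.7 in control, and was not tested. *Kcne4*, of the same subunit family, read 112.1, 149.8, 113.0 and 119.6 with CR and 71.9 in control (0.77 ± 0.20, adjusted p 0.069).

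Promoters of 79 of the 114 channel genes were matched in RefSeq (GRCr8 assembly, 250 bases before to 50 after the gene start), 4 of them of genes that passed. The promoters of *Kcne3* and *Cacng2* are shown because, of those 4, these genes passed most often over the alternatives (11 of 11 and 12 of 13), *Kcne3* with the reservation just given. The *Kcne3* sequence is the plus strand of chr1:163935785-163936084 with GC boxes (GGGCGG) in capitals, and the *Cacng2* sequence is the minus strand of chr7:111577708-111578007 with the reverse complement of the TATA box (TATAAA) in capitals. Both are written from 5′ to 3′ along the gene.
Kcne3: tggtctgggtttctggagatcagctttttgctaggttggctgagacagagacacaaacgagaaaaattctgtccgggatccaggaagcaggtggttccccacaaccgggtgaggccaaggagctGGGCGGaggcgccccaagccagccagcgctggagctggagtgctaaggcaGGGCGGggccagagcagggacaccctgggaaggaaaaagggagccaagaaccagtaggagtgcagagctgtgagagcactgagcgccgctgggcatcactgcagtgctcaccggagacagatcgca
Cacng2: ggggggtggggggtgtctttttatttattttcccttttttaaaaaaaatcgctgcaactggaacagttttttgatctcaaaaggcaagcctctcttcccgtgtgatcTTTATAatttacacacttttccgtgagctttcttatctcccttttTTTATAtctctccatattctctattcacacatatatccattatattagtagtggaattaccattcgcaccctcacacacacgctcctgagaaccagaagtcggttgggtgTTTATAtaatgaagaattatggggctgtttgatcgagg
Searched on both strands, GGGCGG was found in 44 of the 79 channel gene promoters (55.7%) and in 34.9% of all 27457 promoters of this length. TATAAA was found in 4 of 79 (5.06%) and in 14.3% of all, and the cAMP response element TGACGTCA in 0 of 79 and in 1.91% of all. A match is only a description of these letters.

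Among the Kcnq and Kcnh channels, which carry slow and threshold potassium currents, 4 of 11 genes were tested. *Kcnh3*, a channel of the forebrain, read 78.8, 122.1, 52.3 and 110.4 with CR and 28.5 in control (1.60 ± 0.55, adjusted p 0.0354). All CR arrays lay above control but they spread by more than a doubling among themselves, and the gene passed in 6 of 12 alternatives. Its control reading was under the limit, so *Kcnh3* had to differ to be tested. *Kcnq5*, a subunit of the M-current that restrains firing, read 132.8, 198.3, 221.2 and 102.2 with CR and 175.3 in control (-0.17), so control fell inside the CR range. It also did for *Kcnh1* (0.16) and *Kcnh2* (0.26), which code for ether-a-go-go channels. *Kcnq3*, its partner in that current, was under the limit at 79.2, 32.6, 85.7 and 106.1 with CR and 15.2 in control.

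The channels that calcium or sodium opens gave 0 calls among 4 tested of 7 genes, against 22.9% of all named genes tested. *Kcnn3* (SK3, which produces the pause after a spike) read 67.2, 58.6, 94.2 and 72.3 with CR and 32.0 in control (1.17 ± 0.29, adjusted p 0.060). All CR arrays lay above control, and it was one of the genes that had to differ. *Kcnmb4*, the neuronal BK beta subunit, read 286.3 to 325.2 with CR and 231.5 in control (0.38, adjusted p 0.128). *Kcnma1*, the BK pore, had 0.32 and *Kcnt1*, a sodium-activated channel, had -0.11. The other tested probe sets of *Kcnt1* went the other way, with 0.30 (adjusted p 0.619) and 0.71 (adjusted p 0.265). The one with 0.71 had a control reading of 38.2 and was over the limit only through its CR arrays.

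For the two-pore leak channels, which hold the resting potential, 3 of 11 genes were tested. *Kcnk3* (TASK-1, an acid-sensitive leak channel) rose, with 175.1, 229.8, 190.7 and 196.6 in CR and 93.1 in control. The CR arrays lay well above control, and the log2 change was 1.08 ± 0.16, a level 2.12-fold higher (adjusted p 0.0072). *Kcnk3* passed in the 11 alternatives that tested it. It was under the limit, and so not tested, with the filter at the 75th percentile and with the mean of all probe sets. Its other probe sets, at 15.0 to 22.5 and 7.2 to 16.3 with CR and at 16.0 and 25.3 in control, were under the limit. *Kcnk13* (THIK-1, the leak channel of microglia) read 61.3, 90.3, 140.8 and 82.8 with CR and 40.1 in control (1.16 ± 0.50, adjusted p 0.081) and had to differ. *Kcnk2* (TREK-1, opened by stretch and lipids) read 303.4 to 341.5 with CR and 383.2 in control (-0.23, adjusted p 0.310), and *Kcnk1* (TWIK-1) was under the limit at 30.7 to 75.2 with CR and 50.3 in control.

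Of 15 inward rectifiers, 4 were tested and 0 passed, against 22.9% of all named genes tested. *Kcnj11* codes for Kir6.2, the pore of the ATP-sensitive channel that closes when glucose is plentiful, and read 181.1, 146.5, 144.0 and 162.1 with CR and 112.2 in control (0.49 ± 0.15, adjusted p 0.153). Its other tested probe sets changed by 0.62 (adjusted p 0.193) and 1.03 (adjusted p 0.096), and none passed. Every CR array lay above control on each, but the probe set with 1.03 had a control reading of 30.4 and was over the limit only through its CR arrays. *Abcc8*, the SUR1 subunit of the same channel, read 98.9, 56.2, 51.2 and 72.2 with CR and 39.9 in control (0.75 ± 0.43, adjusted p 0.250). *Abcc8* too was over the limit only through its CR arrays. *Kcnj16* (Kir5.1), a partner of the glial channel Kir4.1, read 569.1 to 612.6 in CR and 649.8 in control (-0.15), and *Kcnj6* (GIRK2, opened by inhibitory transmitters) had -0.18. The other probe set of *Kcnj16* changed by -0.66 (adjusted p 0.157). *Kcnj4* (Kir2.3) read 58.8 to 78.8 with CR and 32.3 in control (1.06, adjusted p 0.076) and had to differ. *Kcnj10* (Kir4.1) and *Kcnj3* (GIRK1) were under the limit, at 11.8 to 36.7 and 29.6 to 87.2 with CR and at 14.2 and 17.1 in control.

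Of 3 HCN pacemaker channels, which open on hyperpolarisation, 1 was tested. *Hcn2* read 121.9, 160.9, 155.3 and 208.3 with 5, 10, 20 and 30% CR and 160.3 in control (-0.01), and the control array lay inside the CR range. The control reading of *Hcn4* was 1.2, against 13.1 to 18.8 in CR, too dim to test.

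Of the calcium channel pore subunits, 3 of 10 genes were tested and 0 passed, against 22.9% of all named genes tested. *Cacna1b*, the N-type channel of nerve terminals, read 159.2, 134.2, 140.2 and 160.1 with CR and 208.8 in control, a change of -0.50 ± 0.13 (adjusted p 0.129). The groups did not overlap. *Cacna1c*, an L-type channel that links activity to transcription, read 66.6 to 105.4 with CR and 83.9 in control (0.06), and *Cacna1h*, a low-threshold T-type channel, read 39.4 to 101.9 with CR and 85.9 in control (-0.49). In both, control fell inside the CR range. The P/Q-type *Cacna1a* was under the limit, at 102.6, 55.2, 84.7 and 20.5 with CR and 28.8 in control. The T-type *Cacna1g* was also under it, at 21.0, 19.7, 17.2 and 25.6 with CR and 67.8 in control.

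The calcium channel subunits that carry the pore to the membrane did not pass. *Cacna2d1*, the binding site of gabapentin, read 231.0 to 273.8 with CR and 216.5 in control (0.20, adjusted p 0.466), and *Cacna2d3* differed by -0.02. *Cacnb1* (0.33), *Cacnb2* (0.17) and *Cacnb3* (-0.30) had adjusted p of 0.354, 0.595 and 0.254, and *Cacnb4* was under the limit at 31.3 to 46.1 with CR and 23.4 in control.

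*Cacng2* codes for stargazin, which by sequence is a calcium channel gamma subunit and is best known for bringing AMPA glutamate receptors to synapses. It rose, with 513.8, 530.0, 572.4 and 458.3 at 5, 10, 20 and 30% CR and 310.2 in control. No CR array came near the control array, and the log2 change was 0.74 ± 0.13, a level 1.67-fold higher (adjusted p 0.0086). Its other tested probe set read 150.5, 153.3, 209.3 and 192.9 with CR and 108.9 in control (0.68, adjusted p 0.076), on the same side. It passed in 12 of 13 alternatives, and the exception was median scaling (0.30, adjusted p 0.166, within a range of 0.0050 to 0.166 over the alternatives). Of the other 7 gamma genes, 0 were tested.

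**Figure D3:**
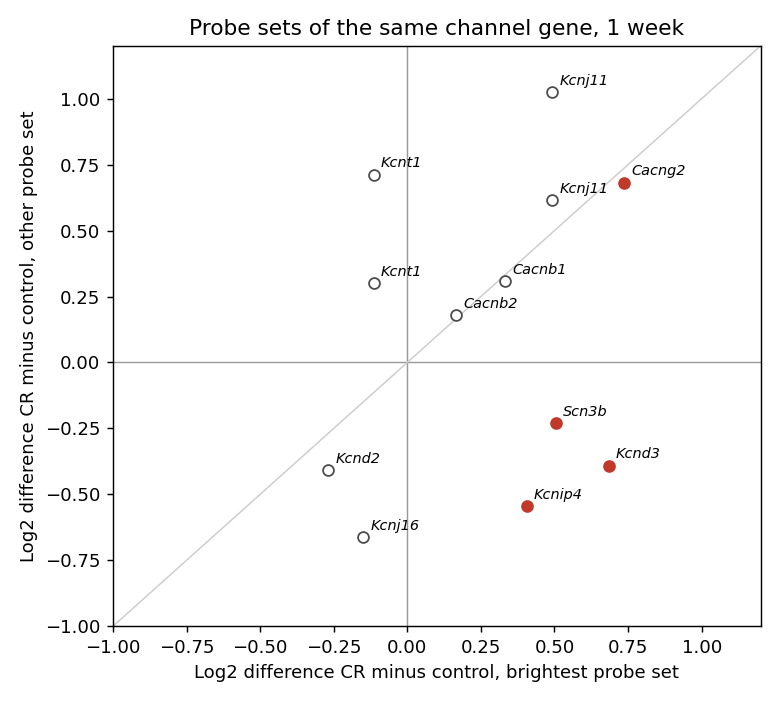
Log2 change (CR minus control) of each other tested probe set of a channel gene against that of the brightest probe set, filled where the brightest one passed. Of 12 points, 7 share a sign, and *Kcnd3*, *Kcnip4* and *Scn3b* lie in the lower right, where the probe sets read opposite ways.

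The array carried 67 other probe sets for channel genes. Of these, 12 in 10 genes were bright enough to be tested, 0 passed, and 7 had the sign of the brightest probe set. That of *Cacnb1* (control 45.1), 1 of *Kcnj11* (30.4) and 1 of *Kcnt1* (38.2) were over the limit only through their CR arrays and had to differ. The called genes with a second tested probe set were *Cacng2*, *Kcnd3*, *Kcnip4* and *Scn3b*, and only that of *Cacng2* had the same sign. Probe sets can measure different transcript ends or isoforms of a gene, and which transcript each reads was not tested.

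The ion pumps and exchangers that restore the gradients used by these channels were a further list of 20 genes, with 16 on the array and 14 tested. Of these, 1 was higher and 4 were lower, and the median change was -0.28. The background was 11.6% higher and 11.3% lower over all named genes tested. The lower count was 9 with median scaling, 1 with eBayes without trend and 2 without the 5% array, and the higher count was 0 with median scaling, eBayes without trend or the mean of all probe sets. The lower genes included all 3 beta subunits of the sodium pump. *Atp1b3* read 720.7, 700.7, 776.4 and 836.0 with CR and 1240 in control (-0.71, adjusted p 0.0049). *Atp1b1* (-0.41, adjusted p 0.0248) and *Atp1b2* (-0.31, adjusted p 0.043) changed less, and all CR arrays lay below control for the 3 of them. *Slc24a3*, a potassium-dependent sodium and calcium exchanger, read 537.6, 604.4, 568.8 and 712.5 with CR and 1006 in control (-0.74, adjusted p 0.0100). It passed in 11 of 13 alternatives, and not with eBayes without trend (adjusted p 0.057) or the mean of all probe sets (adjusted p 0.129). *Atp2b3*, a plasma membrane calcium pump, rose, with 828.2, 892.3, 910.1 and 808.4 in CR and 567.9 in control (0.60, adjusted p 0.0086), and passed in 10 of 13 alternatives.

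Single CR levels were also set against the control array, with 1 array each and so with no test. The number of tested channel genes at least 1.5-fold higher was 12 at 5% CR, 11 at 10%, 12 at 20% and 10 at 30%. Against this the share of all named genes tested was 16% at 5%, 16.8% at 10%, 17.4% at 20% and 15.3% at 30%, while the 54 channel genes had 22.2, 20.4, 22.2 and 18.5%. The number at least 1.5-fold lower was 1, 3, 3 and 4, or 1.85, 5.56, 5.56 and 7.41%, and the share of all named genes was 13.8% at 5%, 15.9% at 10%, 17% at 20% and 12.6% at 30%. These counts share the control array. The 6 genes that had to differ are in the higher count at every level. Among the 48 genes with control over the limit, the higher counts were 6, 5, 6 and 4 (12.5, 10.4, 12.5 and 8.33%), against 11.3%, 12.1%, 12.8% and 10.8% of all named genes chosen so, and the lower counts were 1, 3, 3 and 4, against 14.8%, 17%, 18.2% and 13.5%. With median scaling the balance turned, to 5, 6, 4 and 7 higher and 15, 14, 16 and 15 lower of the 54 genes. At 2-fold the higher counts were 5, 6, 5 and 7 of the 54 genes, against 6.65%, 6.78%, 7.88% and 5.84% of all named genes tested. All of these genes at 5% CR, and most at the other levels, were among the 6 that had to differ. The lower counts at 2-fold were 1, 1, 2 and 1 of the 54, against 3.64%, 4.76%, 5.52% and 3.15%.

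**Figure D4:**
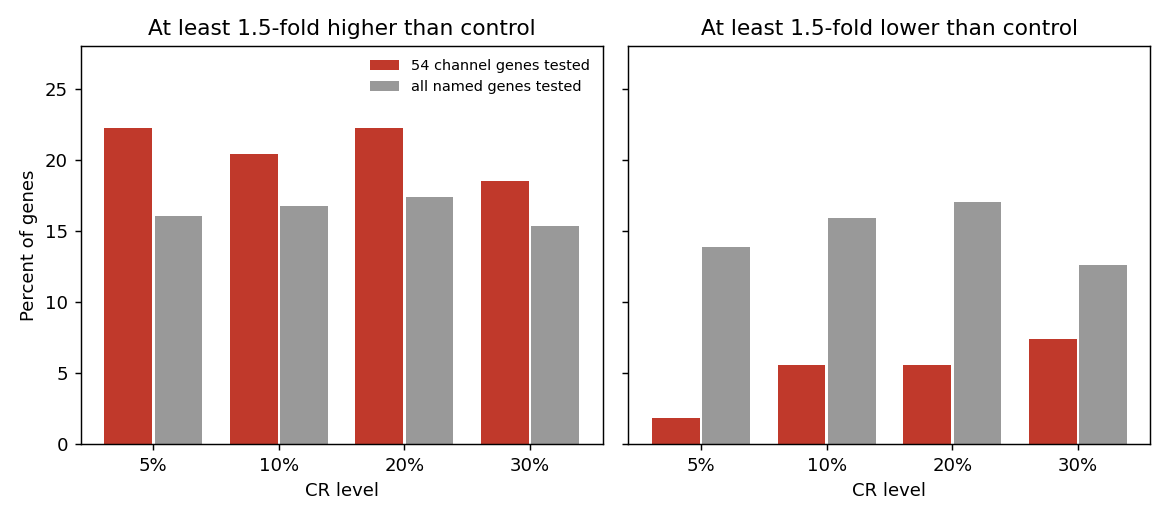
Percent of the 54 tested channel genes (red) and of all 9479 named genes tested (grey) whose signal was at least 1.5-fold higher (left) or lower (right) than control, at each CR level on the x axis. With 1 array per level the bars carry no error, and all bars use the same control array. Higher channel genes lie between 18.5 and 22.2%, with 6 genes at each level that had to differ, and lower ones between 1.85 and 7.41%, a balance that turned with median scaling (4 to 7 genes higher, 14 to 16 lower).

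Over the 4 CR arrays alone, without the control array, 0 channel genes followed the CR level in limma after adjustment (lowest adjusted p 0.999), against a background of 0% of the 9479 named genes tested. At an unadjusted p under 0.05 there were 3 channel genes (5.56%) and 412 of all genes (4.35%). The steepest slopes, per 10 percentage points of restriction, were -0.44 for *Kcnd1*, 0.37 for *Kcnh2* and -0.32 for *Scn3a*. *Scn3a* read 394.2, 421.5, 359.5 and 230.3 at 5, 10, 20 and 30% CR. The 3 genes at an unadjusted p under 0.05 were *Scn3a* (0.0066), *Kcnc4* (-0.24 per 10 points, 0.033) and *Hcn2* (0.26, 0.045). The slope was positive for 24 of the 54 genes.

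All 4 CR arrays lay above control for 25 of the 54 tested channel genes (46.3%), against 33.3% of all named genes tested, and below it for 11 (20.4%), against 35.9%. The 25 include the 6 that had to differ, and among the 48 genes with control over the limit the counts were 19 above (39.6%), against 29.4%, and 11 below (22.9%), against 38.5%. Among the 60 genes under the limit all 4 lay above for 33 (55.0%), against 53.6% of all named genes under the limit, and below for 5 (8.33%), against 8.67%. These 5 were *Cacna1g*, *Cacng3*, *Kcng2*, *Kcnj14* and *Kcnj9*, chosen after their values were seen. The median change of the 60 genes was 0.92, and that of all named genes under the limit was 0.95, so the high side of the dim channel genes was shared with dim genes as a whole. Single signals of the 60 genes lay between 0.2 and 107.7. Their median SD among the CR arrays was 0.71 on the log2 scale, against 0.17 for the tested channel genes.

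**Figure D5:**
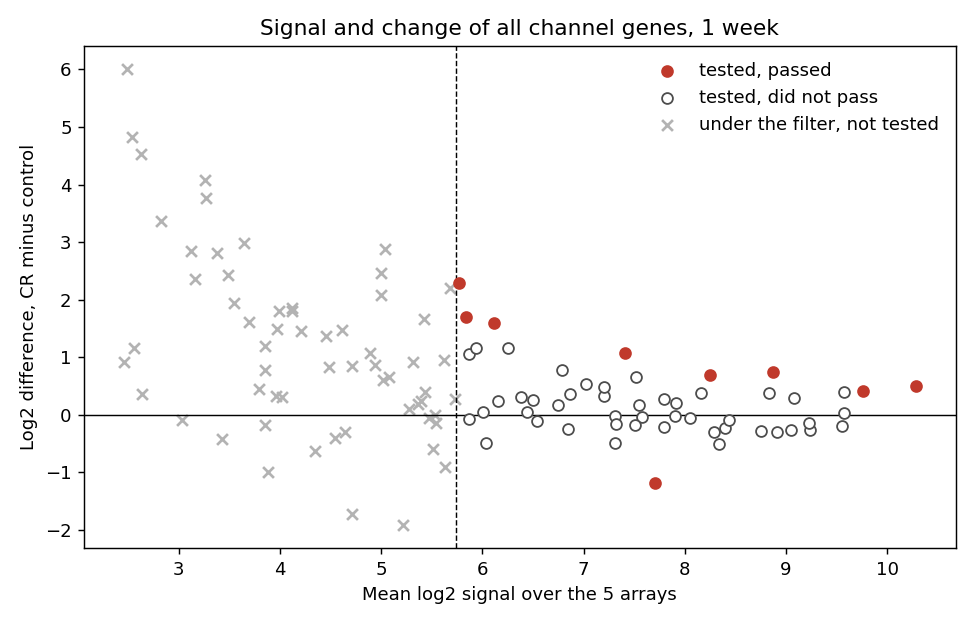
Log2 change (CR minus control) of all 114 channel genes against their mean log2 signal, with genes that passed filled, tested genes open, genes under the limit as crosses, and the limit of 5.74 as a dashed line. The spread widens toward dim signals, where most crosses lie above 0.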

How the data were processed

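Brain RNA was pooled from 5 rats per group and hybridised to 1 Affymetrix rat array per group. The deposited values are linear signal intensity per probe set, computed with MAS5 according to the submitters' processing notes. This method subtracts the signal of mismatch probes, which makes the log2 of a low value imprecise. Detection calls were not used here. Genes were named from the platform annotation, and all 114 channel symbols matched RefSeq by Entrez identifier.

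Only the 5 arrays of 1 week were used. The rows of the 1 month columns do not follow the probe set identifiers (correlation of 1 week with 1 month arrays 0.036 to 0.052, of 1 month arrays with each other 0.918 to 0.935). Signals were taken as log2, with 4 values of 0 set to 0.1 and 57 control probe sets left out. The 15521 probe sets above the 50th percentile of mean log2 signal were fitted with limma 3.58.1 in R 4.3.3 (lmFit, eBayes with intensity trend, Benjamini-Hochberg adjustment, threshold 0.05), 4 CR arrays against 1 control array with 3 residual degrees of freedom. The trend used the 4 CR arrays, with 2 residual degrees of freedom. Tables and plots were made in Python 3.11.15 (pandas 2.3.3, numpy 2.4.6, matplotlib 3.10.9), and the fit was tested on simulated data. The simulated control array was drawn with the spread of the CR arrays. That test therefore does not cover a control array that differs from them as the real one did.

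Genes named were those that passed with all 4 CR arrays on 1 side of control, the brightest gene of each family, a list of 27 well-known channel genes, the 3 steepest slopes and up to 2 called genes per direction of the partner and pump lists. Others that are named were chosen after their values were seen. The members and lists were chosen with earlier results of these data known. Some genes of the list of well-known genes are not reported here.

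Marker lists other than those given with the results had, as tested genes, higher and lower calls, 9, 2 and 2 for neurons, 8, 3 and 1 for hypothalamic peptides, 6, 1 and 1 for astrocytes, 7, 0 and 3 for oligodendrocytes, 4, 1 and 0 for microglia, and 5, 1 and 1 for endothelium. Summed neuron markers were 17007 to 18613 with CR and 18576 in control.

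As alternatives, arrays were scaled by median or quantile, the filter was dropped or raised to the 75th percentile, 13.7 was added to all signals, eBayes was run robust or without trend, CR arrays were left out singly, all probe sets of a gene were averaged, levels were compared at 2-fold, and control entered the trend as 0%. Cyclic loess was added after seeing the data.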

Additional observations from a re-analysis of the deposited data

Results flagged for a closer look

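In 4 of the 54 tested channel genes, 1 CR array stood far from the other CR arrays, by the gap to its nearest neighbour over the range of the 4 arrays. Chance flags about 1 in 20 such groups. *Cacnb1* read 126.1 at 30% CR, against 163.7 to 165.7 on the other CR arrays, and 122.4 in control. *Cacnb3* read 352.6 at 5% CR, against 280.1 to 285.4 on the others, and 369.6 in control. *Kcne3* read 60.2 at 5% CR, against 79.3 to 80.8 on the others, and 15.3 in control. *Scn9a* read 90.3 at 5% CR, against 135.1 to 136.8 on the others, and 96.0 in control. Of these genes *Kcne3* alone passed the test of CR against control.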

How the results depend on the processing

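The 8 higher and 1 lower channel genes became 3 and 11 with median scaling, 17 and 1 with no filter (114 genes tested), 4 and 1 with the filter at the 75th percentile (29 tested) and 5 and 1 with the mean of all probe sets of a gene (41 tested). They were 7 and 1 with quantile normalization and 6 and 1 with cyclic loess. Leaving out each CR array in turn gave 5 to 9 higher genes and 1 lower gene, and the lowest count was without the 10% array, when *Kcnd3* (adjusted p 0.061), *Kcnh3* (0.067) and *Kcnip4* (0.083) did not pass. *Kcnd3* also did not pass without the 5% (0.064) or 20% array (0.056), *Kcnip4* without the 20% (0.070) or 30% array (0.054), and *Kcnh3* without the 30% array (0.061). *Fgf13* did not pass without the 5% (0.093), 10% (0.082) or 20% array (0.055). *Kcna1* (0.045) and *Kcnk13* (0.039) passed without the 5% array and *Kcna6* (0.041) without the 20% array. The adjusted p ranged over all alternatives from 0.0156 to 0.353 for *Kcnd3*, 0.0199 to 0.890 for *Kcnip4*, 0.0106 to 0.229 for *Kcnh3*, 0.0015 to 0.152 for *Fgf13*, 0.0452 to 0.509 for *Kcna1*, 0.0393 to 0.319 for *Kcnk13* and 0.0414 to 0.894 for *Kcna6*. *Scn10a* did not pass with quantile normalization (0.194) or cyclic loess (0.071), within 0.0156 to 0.194.

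The log2 change took the other sign for some named genes. With median scaling this held for *Kcnip4* (-0.029), *Kcna6* (-0.035), *Kcnmb4* (-0.057), *Scn7a* (-0.061), *Scn9a* (-0.080), *Cacnb1* (-0.10), *Kcnma1* (-0.12), *Kcnip1* (-0.14), *Kcnip3* (-0.17), *Kcnh2* (-0.17), *Kcna5* (-0.20), *Cacna2d1* (-0.24), *Cacnb2* (-0.27), *Kcnh1* (-0.27), *Cacna1c* (-0.38), *Kcns3* (-0.39) and *Scn2b* (-0.40). With quantile normalization it held for *Kcna5* (-0.045), *Cacna1c* (-0.10), *Kcns3* (-0.25), *Kcnip2* (0.0048), *Hcn2* (0.0071), *Kcnc4* (0.024) and *Cacna2d3* (0.038), and with cyclic loess for *Kcna5* (-0.10), *Cacna1c* (-0.18), *Kcns3* (-0.34), *Kcnc4* (0.0015) and *Cacna2d3* (0.021). With the mean of all probe sets it held for *Atp2b3* (-0.0019), *Kcnip4* (-0.070), *Scn2b* (-0.30), *Kcnab1* (0.11), *Kcnt1* (0.30), *Kcnk2* (0.39), *Kcnc4* (1.01, adjusted p 0.047, range 0.047 to 0.997) and *Kcna2* (1.93, adjusted p 0.0169, range 0.0169 to 0.840). Leaving out each CR array in turn gave *Hcn2* -0.15 to 0.11 (highest without the 5% array), *Kcns3* -0.026 to 0.10, *Cacna1c* -0.034 to 0.19 and *Kcnip2* -0.14 to 0.085 (the other sign without the 20% array), and *Kcnq5* -0.33 to 0.038, *Kcnc4* -0.19 to 0.061, *Scn3a* -0.18 to 0.11 and *Kcnd1* -0.22 to 0.20 (the other sign without the 30% array). The cause was not tested. Of these genes only *Kcnip4* and *Atp2b3* had passed the test as deposited.

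Of 739 values for single genes, 645 kept their direction and their side of the threshold, 36 lost a pass and 18 gained one, and 45 took the other sign, of which 3 are also among the lost and 2 among the gained passes. The trend over CR level gave 0 calls under each alternative run. No paired analysis was possible because the labels give no replicate numbers and there was 1 control array, whose own spread could not be measured and which could not be left out. A signal close to background does not show whether the transcript was present.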
